A study of Mus musculus with 10 samples.

Results

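This account describes 21 protein-coding genes whose RNA fell under doxycycline (DOX) in 2 MLL-AF9-i139 clones and kept at least 0.6 of that fall in the third clone. Levels are CPM, a gene's count scaled to a common total for every library. The change in a clone is the log2 ratio of its DOX library over its untreated library, after 0.2 CPM was added to both. A gene was a member if its mean over the 6 MLL-AF9-i139 libraries was at least 1 CPM, its change was -0.7 or lower in clones 1 and 2, and its change in clone 3 was below 0 and at least 0.6 times the mean of the other two in size. Eif4g2, Hpgd, Ptprt and Rspo3 were left out by name, although 3 of these 4 genes fell in clones 1 and 2 and 2 of them also passed the limit for clone 3. Of 52550 genes in the count table, 10676 were protein-coding with a mean of at least 1 CPM. Of these, 442 fell in clones 1 and 2, and 21 of them met the whole rule. The genes were thus selected on the measured changes in the 3 clones, and those changes are given as a description without a test. The words fall and fell name the changes that met these limits.

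The series holds RNA sequencing of 10 libraries from mouse bone marrow cells of the C57BL/6 strain that were enriched for hematopoietic stem and progenitor cells (HSPCs). All 10 libraries, the controls included, came from cells transformed with a retrovirus for MLL-AF9, the fusion oncoprotein of a leukemia with MLL rearrangement. Per the labels and methods the cells also carried tetR-KRAB, a repressor that DOX releases, delivered by a second retrovirus. MLL-AF9-i139 cells held a lentiviral vector for DOX-inducible miR-139 and MLL-AF9-ieGFP cells one for DOX-inducible eGFP. Each MLL-AF9-i139 clone grew from a picked colony and was sequenced once without and once with DOX at 5 µg/mL, for 48 h in clones 1 and 2 and for 72 h in clone 3. The labels give no time for the untreated MLL-AF9-i139 libraries. The length of treatment and the identity of clone 3 cannot be told apart. The MLL-AF9-ieGFP libraries came from 1 clone, untreated and DOX-treated for each of 48 h and 72 h, so the spread between them is a spread between times of 1 clone and may be technical.

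A microRNA (miRNA) is a short RNA that guides an Argonaute protein to messenger RNAs. It pairs mainly through its seed, bases 2 to 8 from its 5′ end, with sites that lie mostly in 3′ untranslated regions (UTRs). Paired messengers are translated less and are degraded sooner, so the RNA of a direct target usually falls after a miRNA is induced. miR-139 lies in an intron of Pde2a, its hairpin gives the strands miR-139-5p and miR-139-3p, and it is known as a tumor suppressor that is silenced in acute myeloid leukemia.

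Both mature strands are shown because the matches searched in the members follow from their seeds, which are in capitals. The sequences are those of RefSeq on GRCm38.p6, where miR-139-5p lies at chr7:101475382-101475403 and miR-139-3p at chr7:101475418-101475439, both on the plus strand.
miR-139-5p: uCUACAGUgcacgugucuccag
miR-139-3p: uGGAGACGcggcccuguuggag

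The site searched was ACTGTAGA for miR-139-5p and CGTCTCCA for miR-139-3p, and a match was the whole site or either 7-base stretch of it, without its first or without its last base. Only the sense strand of the transcript was read, and 2 overlapping 7-base matches counted as 1 match of 8 bases. The longest 3′ UTR of each gene came from GENCODE M21 transcripts on GRCm38. The windows below are the matches in members with the most complete or most repeated pairing, with the matched bases in capitals. The letters are those of the transcript, 5′ to 3′.
Abat, miR-139-5p site, chr16:8621356-8621385, plus strand: gcatatatacagttcACTGTAGAaaaccac
Abat, miR-139-3p site, chr16:8618627-8618647, plus strand: cgcagcCGTCTCCAtgacgct
Mex3a, miR-139-5p site, chr3:88541146-88541175, plus strand: gaagatggtctctccACTGTAGAaagtaga
Mylk, first miR-139-5p site, chr16:35001525-35001554, plus strand: aaactgatgtcagcaACTGTAGgactgggg
Mylk, second miR-139-5p site, chr16:35002363-35002392, plus strand: gacgagaacgctatgACTGTAGttagctca
Fam91a1, last miR-139-5p site, chr15:58456522-58456551, plus strand: gctttgattgagttaACTGTAGgtatttat

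In the longest 3′ UTR, the share of members with a seed match was near that of all coding genes. A miR-139-5p match stood in the 3′ UTR of 5 of 21 members (23.8%, 95% exact binomial interval 8.22% to 47.2%), of 97 of 418 genes that fell in clones 1 and 2 and did not keep the fall in clone 3 (23.2%), and of 2446 of 10636 coding genes with a transcript (23.0%). A miR-139-3p match stood in 4 of 21 members (19.0%, interval 5.45% to 41.9%), against 14.6% of the falls that were not kept and 16.3% of coding genes. Either strand matched 8 of 21 members (38.1%), against 32.7% and 33.4%. The intervals are wide and the differences were not tested. The genes are called here by the rule that chose them, the falls kept in clone 3, and not by a role as targets.

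The members also had longer 3′ UTRs, with a median of 2072 nt against 1040 nt for the falls that were not kept and 1159 nt for coding genes. Per 10 kb of 3′ UTR there were 1.65 miR-139-5p matches in members, 2.05 in falls that were not kept and 1.85 in coding genes. The corresponding values for miR-139-3p were 1.03, 1.29 and 1.22. Matches of 8 bases to miR-139-5p occurred in 2 members (9.52%), Abat and Mex3a. They occurred in 6.46% of falls that were not kept and in 4.42% of coding genes. Those to miR-139-3p occurred in 1 member (4.76%), Abat, against 1.435% and 1.25%. In coding sequence, 8 of 21 members (38.1%) held a miR-139-3p match, against 18.7% of the other falls and 19.4% of coding genes. A miR-139-5p match there was held by 2 members (9.52%), against 11.5% and 11.0%. The length of the coding sequence was not compared. The members' shares rest on at most 8 genes, and the differences were not tested.

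**Figure D1:**
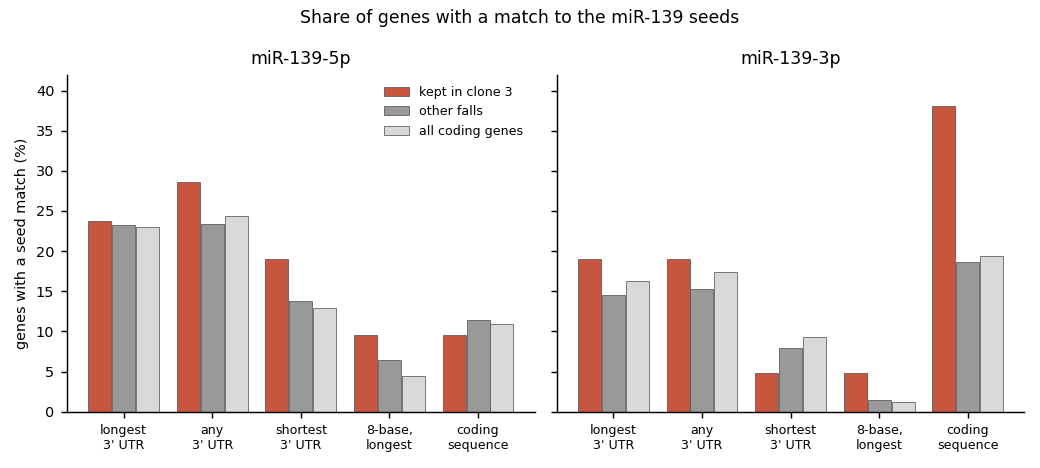
Share of genes (%, y axis) with at least 1 match to the seed of miR-139-5p (left) or miR-139-3p (right) in the regions on the x axis, for the 21 kept falls, the 418 other falls and the coding genes. In the longest 3′ UTR the miR-139-5p bars stand at 23.8%, 23.2% and 23.0%. The widest gap is for miR-139-3p in coding sequence, at 38.1% of members and 19.4% of coding genes.

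Positions of the matches varied. Abat, which encodes GABA transaminase, was the one member with 8-base matches to both strands, the miR-139-5p match starting at base 2745 of a 3′ UTR of 2942 nt and the miR-139-3p match at base 7. The 8-base match of Mex3a began at base 3980 of 4215 nt. Mylk had 2 miR-139-5p matches, at bases 1008 and 1846 of 1888 nt. Fam91a1 had 3, at bases 268, 1280 and 1605 of 2808 nt. Hist4h4 had 1 miR-139-5p match, at base 359 of an annotated 2515 nt, and Plxna3 had 1 miR-139-3p match, at base 78 of 1147 nt. Spink10 had 2 miR-139-3p matches and St8sia5 had 1. Ccr2 had 2 miR-139-5p matches in its shortest annotated 3′ UTR and 0 in its longest. Conversely, Abat, Mylk, Spink10 and St8sia5 had 0 matches to either strand in their shortest annotated 3′ UTR. The counts of all these genes thus depend on the transcripts that these cells use, which was not tested.

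Members with a miR-139-5p match had a median change over the 3 clones of -0.83 (n = 5) and members without one of -0.89 (n = 16). In clone 3 the medians were -0.57 and -0.77. The rule kept 5 of the 102 genes with a miR-139-5p match that fell in clones 1 and 2 (4.90%) and 16 of the 337 without one (4.75%). The shares for miR-139-3p were 4 of 65 genes with a match (6.15%) and 17 of 374 without one (4.55%).

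The 21 genes are described next by the role of their products, with the level in every library. In each sentence the values of MLL-AF9-i139 stand in the order clones 1, 2 and 3, and those of MLL-AF9-ieGFP in the order 48 h and 72 h. A share that remained is the change of a clone taken back from the log2 scale, so it includes the 0.2 CPM added to both levels. It is therefore higher than the ratio of the printed CPM, the more so in genes of low level. In bulk RNA, fewer cells of a type and less RNA of a gene per cell cannot be told apart. All coordinates are GRCm38 gene bounds in GENCODE M21.

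The first group was receptors of the cell surface. Epha7 (chr4:28813131-28967499, plus strand), an Eph receptor tyrosine kinase that binds membrane-bound ephrins, stood at 39.5, 27.9 and 20.2 CPM without DOX and 20.8, 12.9 and 9.56 CPM with DOX in MLL-AF9-i139. The DOX libraries held 52.8%, 46.7% and 47.8% of the untreated level (log2 change -1.03 ± 0.09, mean ± SD of 3 clones). The level fell by about the same proportion in each clone although clone 1 began highest, and the DOX library of clone 1 overlapped the untreated library of clone 3. In MLL-AF9-ieGFP, Epha7 stood at 23.0 and 19.4 CPM without DOX and 22.3 and 12.7 CPM with DOX, lower with DOX mainly at 72 h.

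Epha10 (chr4:124880899-124917800, plus strand), an Eph receptor regarded as lacking kinase activity, was close to the lower limit of the rule. Its level was 1.19, 1.60 and 1.66 CPM without DOX and 0.629, 0.757 and 0.771 CPM with DOX, and every DOX library was below every untreated one. In MLL-AF9-ieGFP it stood at 1.11 and 1.14 CPM without DOX and 1.25 and 1.71 CPM with DOX, so it was higher with DOX at both times.

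Plxna3 (chrX:74329066-74344689, plus strand), a plexin that receives semaphorin signals, was at 2.76, 2.36 and 4.56 CPM without DOX and 1.32, 1.14 and 2.57 CPM with DOX, with 51.4%, 52.1% and 58.2% remaining. The DOX library of clone 3 lay within the untreated range of the other clones. In MLL-AF9-ieGFP it moved in opposite directions at the 2 times, from 3.66 and 2.48 CPM to 3.04 and 3.39 CPM.

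Ptch1 (chr13:63508328-63573598, minus strand), the receptor that holds Hedgehog signaling in check when no ligand is bound, was at 4.82, 12.3 and 12.5 CPM without DOX and 2.38, 7.17 and 8.56 CPM with DOX. Clone 1 started far below the others, and its untreated level was below the DOX levels of clones 2 and 3. The fall was smallest in clone 3, where 51.5%, 58.7% and 68.8% of the untreated level remained in the 3 clones in order. The MLL-AF9-ieGFP clone was lower than any untreated MLL-AF9-i139 library, at 2.75 and 2.70 CPM without DOX and 3.09 and 3.00 CPM with DOX.

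Ccr2 (chr9:124101950-124113557, plus strand), the chemokine receptor that draws monocytes out of the marrow, stood at 1.42, 1.98 and 2.70 CPM without DOX and 0.672, 0.580 and 0.848 CPM with DOX. The changes in clones 2 and 3 were close, at -1.48 and -1.47 on the log2 scale, and the groups did not overlap. Without DOX the MLL-AF9-ieGFP clone was lower than every MLL-AF9-i139 clone, at 1.07 and 1.02 CPM, and with DOX it stood at 1.07 and 0.657 CPM. Clec4d (chr6:123262111-123275265, plus strand), a C-type lectin receptor of myeloid cells, stood at 12.2, 10.6 and 16.0 CPM without DOX and 6.78, 5.63 and 11.0 CPM with DOX. Its DOX library of clone 3 was above the untreated library of clone 2, so the groups overlapped. In MLL-AF9-ieGFP Clec4d stood at 10.6 and 12.0 CPM without and 11.2 and 11.0 CPM with DOX.

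Ccr2 and Clec4d are genes of monocytes, so the summed level of 5 macrophage markers is given beside them. That sum was higher with DOX in each clone, at 3.63 and 15.0 CPM in clone 1, 2.68 and 6.26 CPM in clone 2 and 1.61 and 2.31 CPM in clone 3, without and with DOX, while both receptors were lower. The marker C1qa was at 0 counts in all libraries. The part of such cells in the falls was not tested.

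The second group was genes of adhesion and the cytoskeleton. Pkp2 (chr16:16213318-16272712, plus strand), a plakophilin of desmosomes, had the lowest mean change of the 21 genes. It stood at 3.08, 3.31 and 2.44 CPM without DOX and 1.47, 0.757 and 0.848 CPM with DOX, so that 51.0%, 27.3% and 39.6% remained (log2 change -1.39 ± 0.45). The clones differed more in this gene than in any other member, with an SD of 0.45, and the groups did not overlap. The MLL-AF9-ieGFP values were 2.40 and 4.47 CPM without and 2.45 and 2.87 CPM with DOX, level at 48 h and lower with DOX at 72 h.

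Plekha6 (chr1:133164210-133303435, plus strand), a pleckstrin homology domain protein of cell junctions, stood at 5.75, 5.60 and 12.6 CPM without DOX and 1.95, 1.87 and 5.91 CPM with DOX. Clones 1 and 2 were nearly identical in level and in fall, whereas clone 3 began at more than either and stayed above their untreated levels with DOX. The remaining share was 36.1%, 35.6% and 47.9% (log2 change -1.34 ± 0.24). Another annotated gene, Gm19461, covers 13.9% of its body. In MLL-AF9-ieGFP the level was 6.32 and 5.64 CPM without and 5.13 and 5.08 CPM with DOX.

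Mylk (chr16:34745210-35002420, plus strand), the myosin light chain kinase that activates contraction of actin and myosin, was at 15.9, 7.78 and 14.8 CPM without DOX and 9.04, 3.53 and 7.22 CPM with DOX. Clone 2 was lowest in both states, so the groups overlapped although each clone lost a like share, with 57.4%, 46.8% and 49.4% remaining. In MLL-AF9-ieGFP it stood at 10.4 and 11.5 CPM without and 11.7 and 10.1 CPM with DOX. Both DOX libraries were above every DOX library of MLL-AF9-i139, and the direction of change differed between the times.

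The third group was enzymes of small molecules and sugars. Abat (chr16:8513429-8621568, plus strand) stood at 1.44, 1.44 and 1.44 CPM without DOX, nearly the same in the 3 clones, and at 0.650, 0.530 and 0.565 CPM with DOX. The groups did not overlap, and the changes of the clones lay close together (log2 change -1.07 ± 0.11). Its level in MLL-AF9-ieGFP was 1.35 and 1.25 CPM without and 1.43 and 1.13 CPM with DOX. Abat had 8-base matches to both strands in its longest 3′ UTR. However, its clone 3 values rested on 57 counts without and 22 counts with DOX.

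Hdc (chr2:126593667-126619299, minus strand), histidine decarboxylase, the enzyme that makes histamine, stood at 3.84, 5.13 and 7.54 CPM without DOX and 2.10, 2.78 and 4.37 CPM with DOX. The share that remained was even, at 56.9%, 55.9% and 59.1%, although the groups overlapped because the clones began at different levels. In MLL-AF9-ieGFP it stood at 3.64 and 3.98 CPM without and 3.42 and 3.18 CPM with DOX. Hdc is made by mast cells, basophils and immature myeloid cells, and the summed level of 6 mast cell or basophil markers was higher with DOX in each MLL-AF9-i139 clone, at 11.9, 11.2 and 15.0 CPM without and 18.6, 16.4 and 19.3 CPM with DOX. Most of that sum was Mcpt8, at 8.30, 8.46 and 10.3 CPM without and 14.2, 13.9 and 16.0 CPM with DOX. Ms4a2 was lower with DOX in all 3 clones, with log2 changes of -0.64, -0.49 and -0.87, Gata2 differed in direction between clones, and Fcer1a and Prss34 were at 0 counts in all libraries. The part of such cells in the fall was not tested. St8sia5, a sialyltransferase that builds gangliosides, stood at 2.53, 6.27 and 2.32 CPM without DOX and 1.17, 2.75 and 1.31 CPM with DOX. Clone 2 was highest in both states and the groups overlapped. The gene stood at 1.42 and 2.56 CPM without and 1.68 and 2.87 CPM with DOX in MLL-AF9-ieGFP.

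The fourth group acts in the nucleus, on RNA or on protein folding. Tfec (chr6:16833373-16898441, minus strand), a transcription factor of the MiT family that is active in macrophages, stood at 118, 101 and 67.3 CPM without DOX and 63.9, 54.2 and 35.6 CPM with DOX. Its change was the most even of all members, with 54.1%, 53.9% and 53.0% remaining (log2 change -0.90 ± 0.02), and the groups did not overlap. In MLL-AF9-ieGFP it was 82.9 and 54.8 CPM without and 90.3 and 55.6 CPM with DOX, higher with DOX at both times.

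Hsph1 (chr5:149614287-149636376, minus strand), a large heat shock protein that serves HSP70 as an exchange factor, was at 158, 182 and 130 CPM without DOX and 86.9, 88.3 and 78.5 CPM with DOX. The groups did not overlap, and 54.9%, 48.5% and 60.3% remained. It was slightly lower with DOX in MLL-AF9-ieGFP at both times, from 180 and 121 CPM to 163 and 113 CPM. Hsp90aa1, an inducible HSP90 chaperone, missed the rule by its change in clone 2 of -0.696, with -0.72 in clone 1 and -0.53 in clone 3.

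Mex3a (chr3:88532395-88541396, plus strand), an RNA-binding protein, stood at 4.29, 5.31 and 3.58 CPM without DOX and 2.04, 2.75 and 2.34 CPM with DOX, with no overlap of the groups. It was nearly level in MLL-AF9-ieGFP, at 4.86 and 4.01 CPM without and 5.10 and 4.02 CPM with DOX. Noc3l (chr19:38788128-38819237, minus strand), a nucleolar protein of ribosome assembly, stood at 82.7, 77.7 and 81.0 CPM without DOX and 47.9, 44.6 and 58.1 CPM with DOX. The untreated clones lay within a narrow range, the groups did not overlap, and 58.1%, 57.5% and 71.8% remained. Its MLL-AF9-ieGFP values were 85.1 and 73.2 CPM without and 79.2 and 74.3 CPM with DOX.

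Hist4h4 (chr6:136801553-136804415, minus strand), a gene of the core histone H4, was the most abundant member. It stood at 186, 197 and 216 CPM without DOX and 110, 111 and 155 CPM with DOX, and the groups did not overlap. In MLL-AF9-ieGFP it was higher with DOX at both times, from 137 and 211 CPM to 179 and 223 CPM. Histone H4 is encoded by many near-identical genes, so how reads were shared among them is uncertain.

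The remaining 4 genes have other or little known roles. Fam91a1 (chr15:58415468-58457740, plus strand), a protein of vesicle capture at the Golgi, stood at 152, 135 and 133 CPM without DOX and 92.1, 77.2 and 90.4 CPM with DOX, with no overlap of the groups. It stayed near its untreated level in MLL-AF9-ieGFP, at 129 and 137 CPM without and 132 and 129 CPM with DOX. Tmem52b (chr6:129512555-129519227, plus strand), a transmembrane protein, stood at 1.40, 1.12 and 1.41 CPM without DOX and 0.737, 0.555 and 0.797 CPM with DOX. 1700016D06Rik (chr8:11654924-11701063, minus strand) stood at 1.66, 1.89 and 1.31 CPM without DOX and 0.889, 1.09 and 0.874 CPM with DOX. In both of these the DOX libraries were all below the untreated ones, at levels near 1 CPM. In MLL-AF9-ieGFP, Tmem52b stood at 1.29 and 1.42 CPM without and 1.53 and 1.13 CPM with DOX, and 1700016D06Rik at 1.81 and 0.968 CPM without and 1.91 and 1.03 CPM with DOX.

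Spink10, named as a serine peptidase inhibitor of the Kazal type, stood at 3.63, 7.11 and 2.22 CPM without DOX and 1.99, 3.00 and 1.00 CPM with DOX, and clone 2 was highest in both states, so that the groups overlapped. In MLL-AF9-ieGFP it was lower with DOX at both times, from 7.04 and 1.94 CPM to 3.44 and 1.29 CPM. Its log2 change at 48 h, -0.99, was the lowest of the members. At 72 h its change was -0.52, near those of Pkp2 (-0.61), Epha7 (-0.60) and Ccr2 (-0.51). Other genes cover 65.0% of the body of Spink10, and how reads in that part were counted is uncertain.

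**Figure D2:**
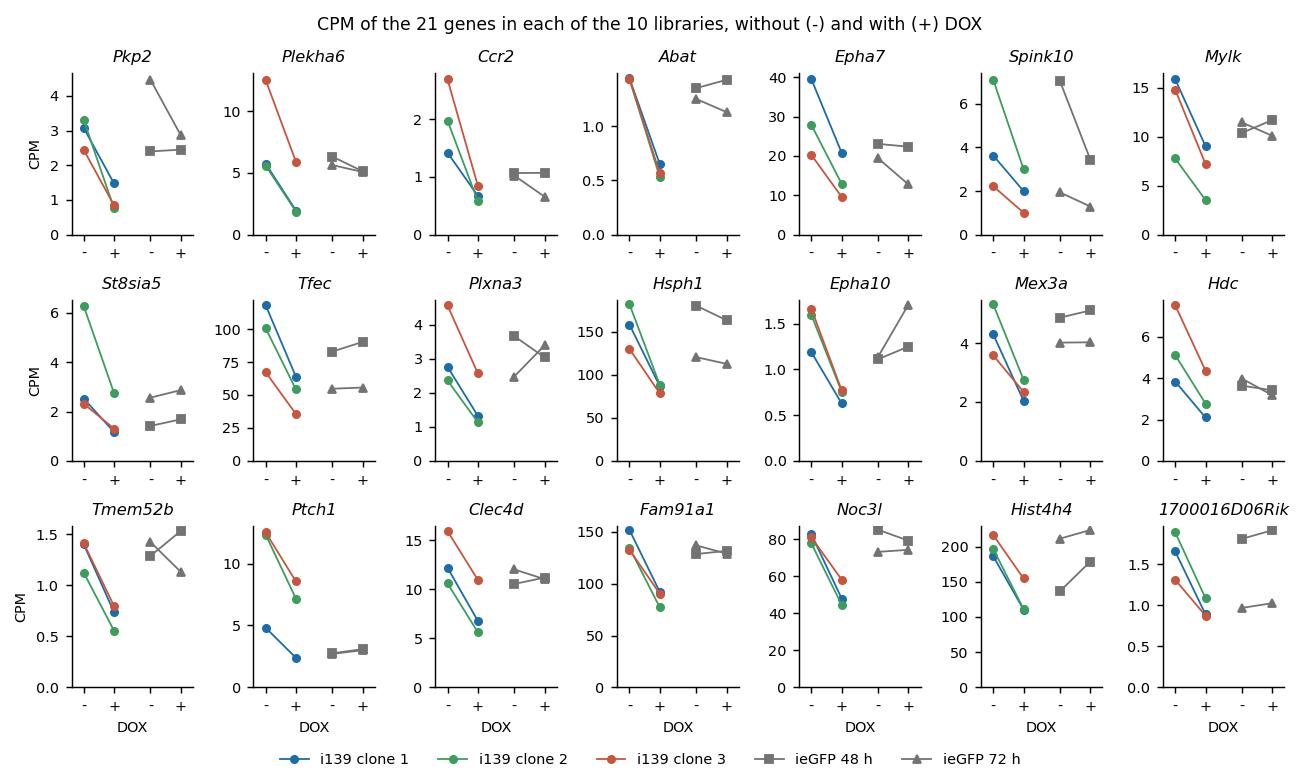
CPM (y axis, from 0, own scale for each gene) of the 21 genes in all 10 libraries, without (-) and with (+) DOX, with lines joining the 2 libraries of an MLL-AF9-i139 clone or of a time in MLL-AF9-ieGFP. All MLL-AF9-i139 lines slope down, as the rule requires, and the MLL-AF9-ieGFP lines slope either way.

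In 12 of the 21 members every DOX library of MLL-AF9-i139 was below every untreated one, as it was in 1797 of 10676 coding genes (16.8%). The rule used these libraries, so nothing is read from the count.

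The share of the fall that clone 3 kept ranged from 0.60 to 1.23 among the members, with a median of 0.82, against 0.25 among the 418 falls that were not kept. In 7 members the fall in clone 3 was at least as large as the mean of clones 1 and 2, and in 2 of them, Tfec and Epha10, it was the largest of the 3. Just inside this limit lay Mex3a, Noc3l and Hist4h4, which kept 0.603, 0.603 and 0.612. Just outside lay Map2k6, Yap1 and Cmpk2, which kept 0.590, 0.587 and 0.584. Yap1, the effector of the Hippo pathway, had log2 changes of -2.06, -2.30 and -1.28, below those of every member in clones 1 and 2, and was left out by its share alone.

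The other limits cut as closely. Nsun5, Dnah2 and Ddx39 missed by clone 1, with changes there of -0.699, -0.690 and -0.668, whereas Fam91a1, Epha10 and Hist4h4 passed with -0.72, -0.75 and -0.75. Fmr1, Hsp90aa1 and Kank2 missed by clone 2, with -0.699, -0.696 and -0.682, whereas 1700016D06Rik, Ptch1 and Noc3l passed with -0.70, -0.77 and -0.80. Rsph6a, B3gnt5 and Dock4 missed by their means of 0.911, 0.891 and 0.817 CPM, whereas Tmem52b, Abat and Epha10 passed with 1.00, 1.01 and 1.10 CPM. Fmr1, which encodes an RNA-binding repressor of translation, was thus apart from the members by less than 0.01 in 1 clone.

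**Figure D3:**
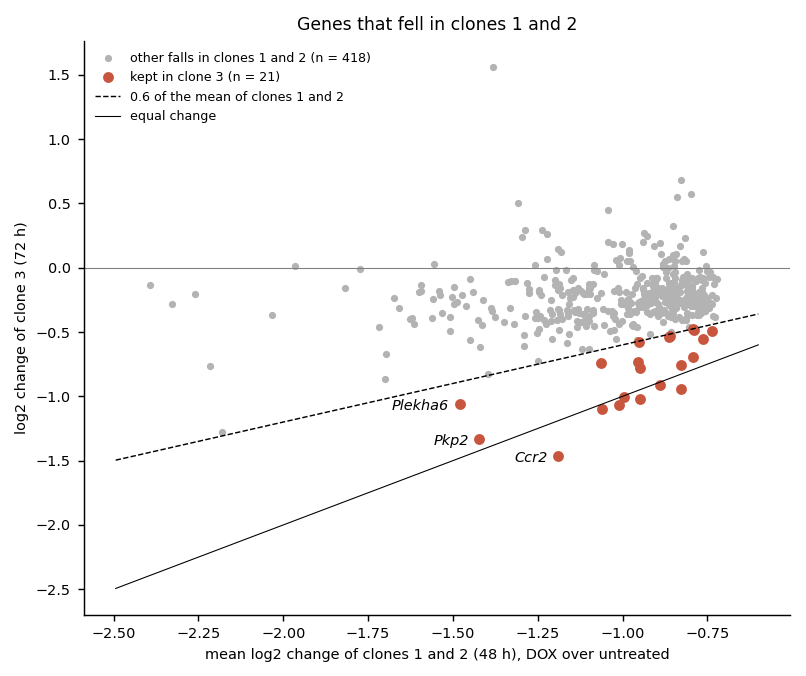
Log2 change in clone 3 (72 h, y axis) against the mean log2 change of clones 1 and 2 (48 h, x axis) for the 442 genes that fell in clones 1 and 2, less the 3 left out by name. The 21 members lie on or below the dashed line at 0.6 of the x value, and 7 of them lie at or below the line of equal change.

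The members were also compared by depth and by their distance to the limit for clone 3. The median of the mean level was 4.29 CPM in members, 25.8 CPM in falls that were not kept and 37.0 CPM in coding genes, and 11 members were under 5 CPM. In 13 members the 95% counting interval of the clone 3 change, from the exact binomial interval of its 2 counts, reached the limit of the rule. In 8 it lay wholly below the limit, namely Pkp2 (-2.14 to -0.94), Ccr2 (-2.28 to -1.09), Hdc (-1.07 to -0.51), Epha7 (-1.26 to -0.90), Mylk (-1.25 to -0.83), Tfec (-1.01 to -0.82), Hsph1 (-0.80 to -0.67) and Fam91a1 (-0.62 to -0.49). Noc3l (-0.56 to -0.40) and Hist4h4 (-0.53 to -0.44), among the members with the most counts, lay close enough to the limit to reach it. The interval of 1700016D06Rik, from 52 and 34 counts, included 0 (-1.25 to 0.066). These intervals cover counting error only, and they leave out the 0.2 CPM that the changes and the limit include. Without the 0.2 CPM the limit would lie further below 0, and the intervals of Pkp2 and Hdc would also reach it.

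**Figure D4:**
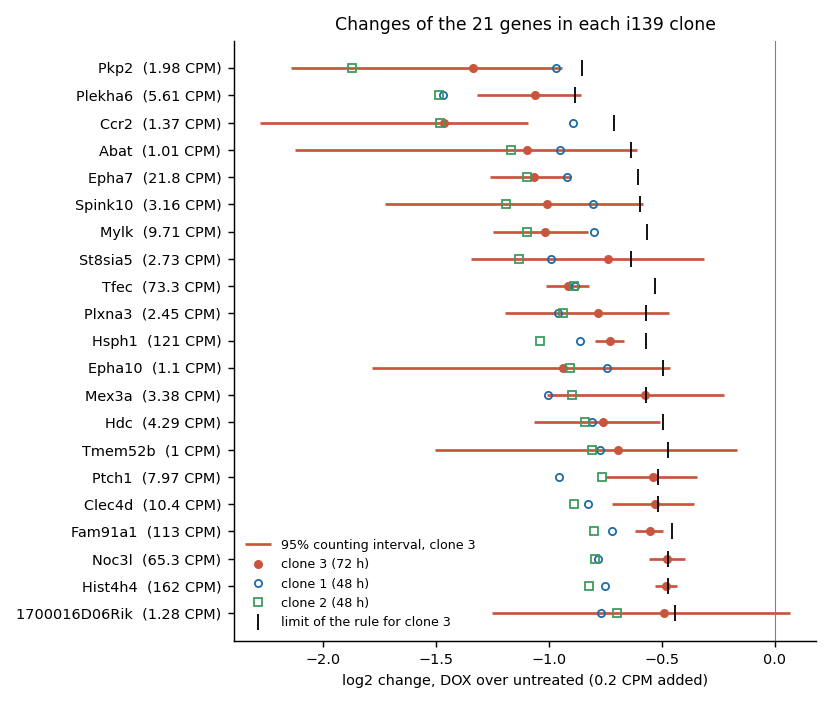
Log2 change with DOX (x axis) of the 21 genes (y axis, with the mean CPM) in clones 1, 2 and 3, with the 95% counting interval of clone 3 and a tick at the limit that the rule set for it. In 13 genes the interval reaches the tick, and the intervals are widest in genes near 1 CPM. The tick includes the 0.2 CPM added to each level, and the interval does not.

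The same measure in MLL-AF9-ieGFP, which the rule did not use, gives the change of these genes with DOX in cells without the miR-139 vector. The median change of the members was 0.07 at 48 h and -0.10 at 72 h, where coding genes had medians of 0.00 at both times to 2 decimals. Of the 21 members, 0 had a change of -0.7 or lower at both times, and the same was true of 0 coding genes. Below 0 at both times were 5 members (23.8%), namely Plekha6, Epha7, Spink10, Hsph1 and Hdc, against 27.5% of coding genes. Above 0 at both times were 7 members (33.3%), against 27.3%.

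By edgeR's quasi-likelihood test on the 4 MLL-AF9-ieGFP libraries, 0 of 21 members had an adjusted p under 0.05, and 0 of 17757 genes tested were called (0%). Without adjustment, 277 genes and 0 members had a p under 0.05, and DESeq2 called 4 genes (0.0225%) and 0 members. The median fitted change of the members was -0.02, with a median standard error of 0.224. The lowest unadjusted p among members was that of Spink10, with a log2 change of -0.93 ± 0.58 (SE), followed by Epha10 with 0.40 ± 0.30 and Plekha6 with -0.23 ± 0.17, and the adjusted p by edgeR was 1 for each.

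With culture time as a replicate block, edgeR called 123 genes (0.693%) and 2 members. Spink10 was lower with DOX (log2 change -0.88 ± 0.18, SE, adjusted p = 0.000485 by edgeR) and Hist4h4 was higher (0.24 ± 0.05, adjusted p = 0.00443 by edgeR). In fits without the block that left out the untreated 48 h library, the changes were 0.27 for Spink10 and -0.08 for Hist4h4, and neither gene was called. Without the untreated 72 h library they were -1.56 and 0.58, and both were called. Spink10 without DOX was itself 7.04 and 1.94 CPM at the 2 times.

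**Figure D5:**
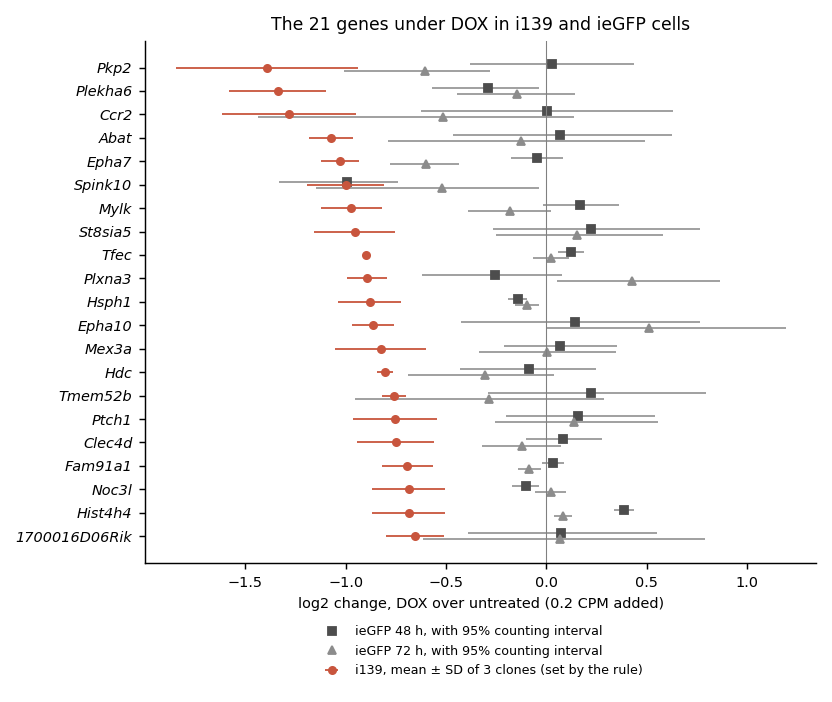
Log2 change with DOX (x axis) of the 21 genes (y axis) in MLL-AF9-i139 (mean ± SD of 3 clones, set by the rule) and in MLL-AF9-ieGFP at 48 h and 72 h (points with 95% counting intervals). The MLL-AF9-ieGFP points scatter around 0, and the 48 h point of Spink10, at -0.99, lies at its MLL-AF9-i139 mean.

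Levels were also compared between the constructs. Without DOX, both MLL-AF9-ieGFP libraries were below all 3 MLL-AF9-i139 libraries in 4 members, Ccr2, Abat, Epha10 and Ptch1 (8.7% of coding genes), and above them in 0 members (7.74% of coding genes). With DOX, both MLL-AF9-ieGFP libraries were above all 3 MLL-AF9-i139 libraries in 12 members (20% of coding genes). The rule used the MLL-AF9-i139 libraries in both comparisons, and the MLL-AF9-ieGFP libraries share 1 clone.

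Lists of genes were counted beside the share over all coding genes, of which 4.14% fell in clones 1 and 2 and 0.197% were members, so counts of 0 or 1 in short lists say little. Of 14 genes published as miR-139-5p targets in other tissues, 12 had a mean of at least 1 CPM, 1 fell in clones 1 and 2 and 0 were members. That gene was Met, the receptor of hepatocyte growth factor, with changes of -0.95, -1.43 and -0.32. Of the 12 genes, 4 were lower with DOX in all 3 clones, Met among them, and 2 were higher, Notch1 and Rap1b. The changes of Notch1 were 1.76, 1.88 and 0.59. Of 18 genes of miRNA silencing, 18 had a mean of at least 1 CPM, 0 fell in clones 1 and 2 and 0 were members. Median changes over the 3 clones were -0.06 in both lists, against 0.01 in coding genes. By gene family, 1 member carried a Tmem symbol, and the other families that were counted had 0 members.

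The members lay on 14 chromosomes, with 4 on chromosome 6. No other gene covered any part of 12 members, and 5 shared exon bases with another gene. The labelled cell type was checked by markers. The summed level of 11 myeloid progenitor markers ranged from 3693 to 7723 CPM. Kit stood at 135 to 166 CPM, but Cd34 stood at only 0 to 0.434 CPM and Itgam at 0 to 0.065 CPM. By flow cytometry the authors found MLL-AF9 cells positive for CD11b, the product of Itgam. How reads of Itgam were counted is uncertain, and the gap between its RNA and protein was not tested. The sums of T cell, B cell, erythroid, megakaryocyte and stroma markers were at most 5.19 CPM. The progenitor sum was higher with DOX in each MLL-AF9-i139 clone and also in MLL-AF9-ieGFP, at 3813 and 4581 CPM without and 4191 and 5702 CPM with DOX at 48 h and 72 h. Of its 9 markers with a mean of at least 1 CPM, 4 were higher with DOX in all 3 MLL-AF9-i139 clones, while Elane, Prtn3 and Ly6c2 were lower in clones 1 and 2 and higher in clone 3. The part of this sum in the falls was not tested.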

How the data were processed

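RNA was measured in 10 libraries: 3 MLL-AF9-i139 clones without and with DOX, and 1 MLL-AF9-ieGFP clone without and with DOX at 48 h and 72 h, grouped by the labels. The authors used ribosomal RNA depletion, aligned with STAR to GRCm38, summed the reads of each GENCODE gene with FeatureCounts 1.6.0, and deposited the counts without normalization. The counting level, strand and overlap settings are not given in the sources used here. Of 677 coding genes that lie inside another gene and share no exon base with it, 98.1% had 0 counts, against 24.9% of coding genes that overlap no gene, as would follow if reads were counted over whole gene bodies. The CPM may then include intronic reads, which was not tested. The authors describe removing rows with read counts under 10 as a step of their own analysis. The deposited counts are without that step and hold 25799 genes at 0 in all 10 libraries. The 2 deposited tables differed in 0 values, and 14 columns of other samples were not used. Rows that name no gene numbered 0.

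Library totals ranged from 35133308 to 47089725 counts. CPM were made from the column totals. Tests were edgeR 4.0.16 quasi-likelihood fits (R 4.3.3, TMM, at least 10 counts in total, Benjamini-Hochberg adjustment over all genes, threshold 0.05), with DESeq2 1.42.0 as an alternative. No replicate block was used in the first fits. Same-numbered MLL-AF9-i139 libraries share a clone, and their deviations from the group means correlated at 0.378, 0.285 and 0.411. The 48 h and 72 h pairs of MLL-AF9-ieGFP share a time by the labels, with a correlation of 0.233. Replicates differed by more than sampling noise (chi-square per degree of freedom 13.5 to 112). Fits were tested on simulated data.

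Gene bounds, transcripts and 3′ UTRs came from GENCODE M21, which matched 52403 of 52550 identifiers, and seeds from RefSeq miRNAs. Python 3.11.15 was used for these steps. The members and lists were chosen with earlier results of these data known. Genes named with values follow a rule over mean change, level, seed match, clone 3 share and distance to each limit of the rule, and the other members were added so that all 21 are shown. Met, Notch1, Rap1b and the marker genes with values were named after their values were seen.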

Additional observations from a re-analysis of the deposited data

Results flagged for a closer look

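In 7 members the change had one sign in all 3 MLL-AF9-i139 clones, where the rule required a fall, and the opposite sign at both times in MLL-AF9-ieGFP. The difference between the constructs was not tested. The rule fixed the sign and the least size of the fall in MLL-AF9-i139. These genes were then picked for changes above 0 in MLL-AF9-ieGFP. The sign and a least size of each difference were thus fixed beforehand, and nothing is read from them. Above 0 at both MLL-AF9-ieGFP times were also 27.3% of coding genes. The mean log2 change in MLL-AF9-i139 minus that in MLL-AF9-ieGFP was -1.19 for Epha10, the Eph receptor. It was -1.14 for St8sia5, the sialyltransferase, and -0.97 for Tfec, the transcription factor. Hist4h4, the histone gene, had -0.92 and Ptch1, the Hedgehog receptor, had -0.90. The values were -0.86 for Mex3a, whose change at 72 h in MLL-AF9-ieGFP was 0.0036, and -0.73 for 1700016D06Rik. The 95% counting intervals of the MLL-AF9-ieGFP changes included 0 at both times in Epha10, St8sia5, Ptch1, Mex3a and 1700016D06Rik. That of Tfec included 0 at 72 h, and those of Hist4h4 lay above 0 at both times. Groups of 2 or 3 libraries were too small to look for single outlying libraries.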

How the results depend on the processing

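The number of members followed the limits of the rule. It was 33 with a mean of at least 0.5 CPM, 7 with at least 10 CPM (chosen after seeing the data), 35 and 11 when clone 3 had to keep 0.5 or 0.8 of the fall, and 36 and 1 with a fall of 0.6 or 1. With a pseudocount of 1 CPM the rule gave 15 genes, of which 12 were among the 21, and with TMM library sizes 26, of which 20 were. Genes called in MLL-AF9-i139, 12 by the first fit, were 562 with no filter beyond 1 count, 6 with at least 10 counts in as many libraries as the smaller group, 1556 by DESeq2, 1234 in a fit of all 10 libraries and 2381 with the clone as replicate block. Leaving out 1 clone gave 0 to 3981 calls, the highest without clone 3 (1 without clone 1 and 0 without clone 2). In MLL-AF9-ieGFP, calls were 0 at first, 28 with no filter beyond 1 count, 4 by DESeq2 and 123 with time as replicate block, and 0 to 68 with 1 library left out (68 without the untreated 72 h library, 44 without the untreated 48 h library). The pairing changed the call of 2 members there, Spink10 and Hist4h4. The median change of the members in MLL-AF9-ieGFP ranged from -0.18 to 0.016 with 1 library left out, the lowest without the 48 h DOX library. With 1 library left out, the change of Spink10 ranged from -1.78 to 0.27 and that of Hist4h4 from -0.083 to 0.58, in fits chosen after seeing the data, both turning sign without the untreated 48 h library. A left-out library leaves an arm with 1 sample, which is assumed to vary like the other arm. The share of members with a miR-139-3p match was 4.76% in the shortest 3′ UTR, below the 7.99% of falls that were not kept and the 9.31% of coding genes. For 8-base matches it was 4.76%, against 1.435% and 1.25%. The other alternatives for the seed shares stayed within the binomial interval. The cause of these differences was not tested. For the members in MLL-AF9-i139, 96 of 105 values under an alternative stayed within 1 SD of the clones, and all were below 0 (-1.60 to -0.42). In 13 members, counting error reached the limit of the rule for clone 3, by intervals that leave out the 0.2 CPM included in that limit.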
